A study of Mus musculus with 16 samples.

Results

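The 10 planar cell polarity core genes described here were Vangl1, Vangl2, Celsr1, Celsr2, Celsr3, Prickle1, Prickle2, Dvl1, Dvl2 and Dvl3. They were taken by Ensembl identifier from the 54838 identifiers of the count tables, and all 10 passed the filter on low counts that left 21284 genes for testing. RNA was sequenced from parts of E10.5 mouse embryos. The 16 libraries made up 8 groups of 2: an anterior part (Head, everything above the third branchial arches) and a posterior part (Tail, everything below the forelimbs) of embryos that were wild-type (WT), mutant for 1 gene (Fuz KO or Gpr161 KO) or mutant for both (Fuz:Gpr161 DKO, DKO below). The purpose was to compare the genotypes by region. The labels list no treatment for any group, and they name no strain, allele, litter or Cre driver. Nor do they state that the 2 replicates of a group are different embryos, so each p-value speaks only of the spread among the samples at hand. That spread may be technical, except in Gpr161 KO, whose replicates differ in sex. Each library holds all tissues of its embryo part.

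Planar cell polarity is the alignment of cells within the plane of a tissue. In the embryo it drives the narrowing and lengthening of the body axis and the closure of the neural tube, and it also places and orients cilia. Its core proteins form 2 opposed complexes at the borders between neighbouring cells. Vangl proteins, which cross the membrane several times, sit on one side with their cytoplasmic partner Prickle, and Frizzled receptors sit on the other with the scaffold Dvl. Celsr proteins, large cadherins with a receptor-like membrane domain, span the gap and are found on both sides. Fuz encodes one of the CPLANE effectors, which link planar cell polarity to cilia, and Gpr161 encodes a receptor in cilia that restrains Hedgehog signalling.

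RefSeq promoter windows of 300 bases (250 before and 50 after a gene's start, assembly GRCm38.p6, read along the gene) were matched for 8 of the 10 genes, giving 12 windows. No entry was found for Vangl1 and Celsr1. The 3 windows printed belong to the genes whose level differed most in opposite directions between Head and Tail: Celsr2 and Celsr3, higher in the Head, and Prickle1, higher in the Tail. Capitals mark the GC box, searched as GGGCGG on either strand, with overlapping matches counted. The windows lie at chr3:108415530-108415829 (minus strand, Celsr2), chr9:108825795-108826094 (plus strand, Celsr3) and chr15:93595853-93596152 (minus strand, the more upstream of the 2 windows of Prickle1).
Celsr2: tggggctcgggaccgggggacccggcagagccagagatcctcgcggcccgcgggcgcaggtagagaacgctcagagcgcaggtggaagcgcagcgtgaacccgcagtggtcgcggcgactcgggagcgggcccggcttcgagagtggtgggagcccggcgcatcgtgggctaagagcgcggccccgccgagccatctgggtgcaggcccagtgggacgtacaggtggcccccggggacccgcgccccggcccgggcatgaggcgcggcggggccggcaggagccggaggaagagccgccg
Celsr3: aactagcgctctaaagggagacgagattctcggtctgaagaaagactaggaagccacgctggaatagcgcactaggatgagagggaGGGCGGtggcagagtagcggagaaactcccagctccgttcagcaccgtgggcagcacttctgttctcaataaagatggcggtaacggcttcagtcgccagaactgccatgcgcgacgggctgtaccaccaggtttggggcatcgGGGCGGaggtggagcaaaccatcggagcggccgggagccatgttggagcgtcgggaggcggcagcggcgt
Prickle1: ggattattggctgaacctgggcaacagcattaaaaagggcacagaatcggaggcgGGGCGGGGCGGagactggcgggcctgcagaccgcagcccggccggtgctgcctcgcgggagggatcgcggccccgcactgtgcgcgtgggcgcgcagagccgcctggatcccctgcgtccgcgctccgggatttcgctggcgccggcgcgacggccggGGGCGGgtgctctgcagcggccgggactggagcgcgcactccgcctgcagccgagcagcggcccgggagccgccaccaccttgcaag
The GC box was found 0 times in the Celsr2 window, 2 times in that of Celsr3 and 3 times in that of Prickle1, and 35.7% of all 32851 promoter windows hold at least 1. The G and C content was 76.3%, 60.7% and 74.0%, against a median of 52.7% over all windows, and the windows held 40, 25 and 39 CG dinucleotides, against a median of 7. The 9-base Gli site TGGGTGGTC, bound by the transcription factors of Hedgehog signalling, was in 0 of the 12 windows and in 0.253% of all windows. These matches only describe the letters of the windows.

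Values are given as CPM, counts scaled to a common library size with edgeR's TMM factor, and changes as log2 fold changes from edgeR's quasi-likelihood test with the standard error (SE). A gene was called changed at a Benjamini-Hochberg adjusted p under 0.05 over all 21284 genes, and a call without a tool named is by edgeR. Total counts per library ran from 39062489 to 53680317, and the lowest count of any of the 10 genes in any library was 61. Fuz was at 4.95 to 9.22 CPM in WT and Gpr161 KO, and at 0.808 to 1.89 CPM where it was knocked out alone or in the DKO. Gpr161 was at 2.13 to 5.44 CPM in the Gpr161 KO and DKO libraries, at 46.8 to 54.95 CPM in WT, and at 25.4 and 24.3 CPM in the Head and Tail libraries of Fuz KO 1. Those 2 libraries and both DKO 1 libraries also stood apart in 15 genes of hypoxia and glycolysis. The summed level of these genes was 18790, 17020, 13600 and 13460 CPM (Head and Tail of Fuz KO 1, then of DKO 1). It was 4897 to 6331 CPM in WT and 7361 to 10950 CPM in Gpr161 KO. The DKO 2 libraries, at 8082 (Head) and 8608 CPM (Tail), also lay above WT, and those of Fuz KO 2 were at 5642 and 6152 CPM. By their X- and Y-linked transcripts the WT libraries were all female, those of Fuz KO and DKO all male, and those of Gpr161 KO mixed (number 1 male, number 2 female). Fuz KO or DKO against WT thus also sets males against females, and a fit with sex as a term takes the sex effect from the Gpr161 KO libraries alone. Markers of neurons, neural progenitors, mesenchyme, endothelium and epithelium were all found in every library.

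**Figure D1:**
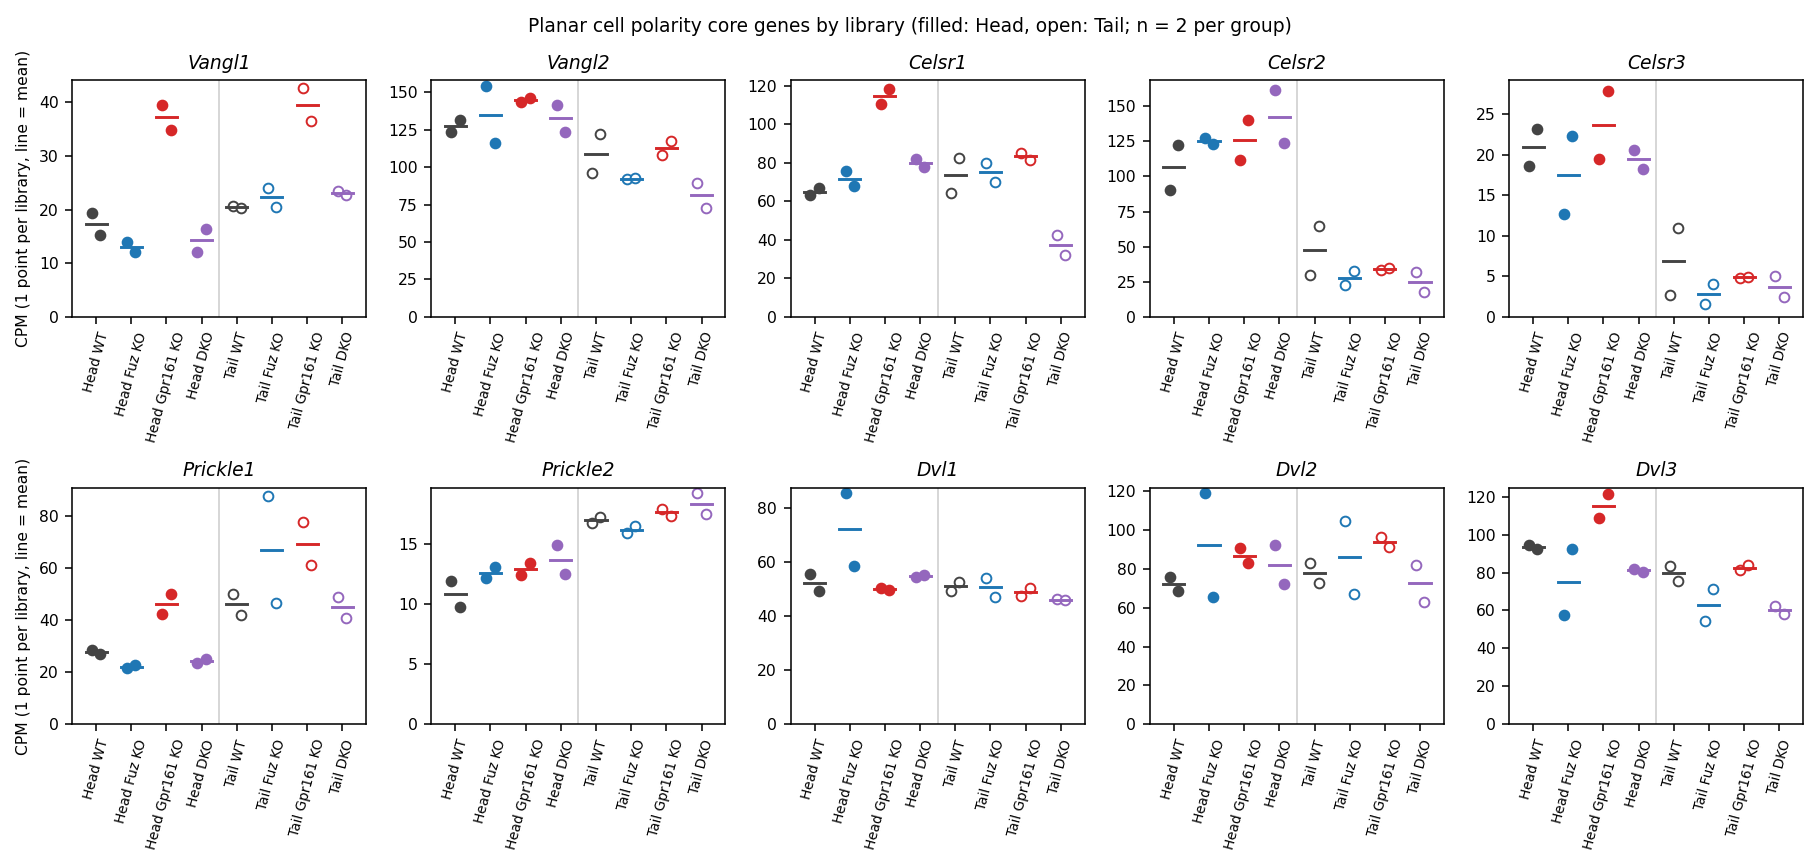
Level in CPM (vertical axis, starting at 0) of each of the 10 genes in each of the 16 libraries, 1 point per library and a line at the mean of each group, with Head libraries filled and Tail libraries open. Vangl1 is highest in the 4 Gpr161 KO libraries (34.8 to 42.6 CPM), Celsr1 is lowest in the 2 Tail DKO libraries (42.5 and 32.1 CPM), and Celsr2 and Celsr3 are lower in every Tail library than in every Head library.

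Per kilobase of exon, the scale on which genes can be compared with each other, Vangl2 was the most abundant of the 10 in Head WT, at a level of 18.3 ± 0.806 CPM per kb (SD, n = 2). Next came Dvl3 at 14.6 ± 0.260, Dvl2 at 11.5 ± 0.817, Dvl1 at 10.47 ± 0.915 and Celsr2 at 9.24 ± 1.95 CPM per kb. Prickle1 (6.38 ± 0.233), Celsr1 (5.91 ± 0.232), Vangl1 (2.43 ± 0.408), Celsr3 (1.74 ± 0.267) and Prickle2 (1.26 ± 0.178) were lower. The less abundant partners in Head WT held small shares of their family: Vangl1 made up 11.7% ± 2.2 of the Vangl level per kb, Prickle2 16.5% ± 1.44 of the Prickle level and Celsr3 10.3% ± 0.0877 of the Celsr level, while Dvl1, Dvl2 and Dvl3 held 28.6% ± 0.944, 31.4% ± 0.523 and 40.0% ± 1.47 of the Dvl level. In Tail WT the Celsr family was led by Celsr1, with 60.5% ± 9.92 of the family's level per kb, where Celsr2 had led in Head WT with 54.5% ± 3.66. The sum over the 10 genes was 81.5 and 82.1 CPM per kb in Head WT and 74.9 and 79.8 CPM per kb in Tail WT. Across all libraries it ran from 57.9 CPM per kb in Tail DKO 2 to 106 CPM per kb in Head Gpr161 KO 2.

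Of the Vangl proteins, Vangl1 rose in Gpr161 KO in both regions. In the Head, the WT libraries held 19.4 and 15.3 CPM and those of Gpr161 KO 39.5 and 34.8 CPM. The Head Fuz KO libraries held 13.9 and 12.2 CPM and those of Head DKO 12.1 and 16.4 CPM. Gpr161 KO thus lay above every other Head library, without overlap. The change against WT was a log2 fold change of 1.10 ± 0.18 (SE, adjusted p = 0.006999). In bulk tissue, more cells of a type that expresses a gene and more RNA per cell cannot be told apart. In the Tail, Vangl1 was at 20.7 and 20.2 CPM (WT), 24.1 and 20.4 (Fuz KO), 42.6 and 36.5 (Gpr161 KO) and 23.6 and 22.6 (DKO). Here too the Gpr161 KO libraries were the highest, with a log2 fold change of 0.95 ± 0.18 against WT (adjusted p = 0.04757). The difference between the 2 regional effects, Tail minus Head, was -0.15 ± 0.25 on the log2 scale, with a 95% interval from -0.69 to 0.40 and an adjusted p of 1. Vangl1's share of the Vangl level per kb was 20.0% ± 1.67 in Head Gpr161 KO and 25.6% ± 3.11 in Tail Gpr161 KO. In the other Tail groups it was 15.7% ± 2.39 (WT), 19.0% ± 1.83 (Fuz KO) and 21.9% ± 1.98 (DKO). Tail Gpr161 KO 2 and Tail DKO 2 were close, at 23.4% and 23.3%.

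In the DKO, Vangl1 lay near the WT level of its region. Vangl1 was lower in Head DKO than in Head Gpr161 KO by a log2 difference of -1.38 ± 0.18 (adjusted p = 0.001194), and Head DKO against Head WT gave -0.28 ± 0.18 (95% interval -0.67 to 0.10, adjusted p = 0.957). It was also lower in Head Fuz KO than in Head Gpr161 KO (log2 -1.51 ± 0.18, adjusted p = 0.0005164). These 2 differences between mutants were called under all 14 alternatives run for each, with adjusted p-values up to 0.02061 and 0.008138. In the Tail, DKO against Gpr161 KO was -0.78 ± 0.18 (adjusted p = 0.08094) and Fuz KO against Gpr161 KO was -0.83 ± 0.18 (adjusted p = 0.08448), neither of them called by edgeR. DESeq2 called both (adjusted p = 0.002335 and 0.001825), as did the fit with the replicate number as a block (0.04927 and 0.04973). Over 14 alternatives each, 5 and 4 made the call, with adjusted p-values up to 0.5448 and 0.5544. Set against the added log2 effects of Fuz KO and Gpr161 KO, the DKO deviated by -0.97 ± 0.25 in the Head (adjusted p = 0.2169) and -0.90 ± 0.25 in the Tail (adjusted p = 0.4925). DESeq2 called the Head value (-0.95, adjusted p = 0.03087), and over the 18 alternatives the adjusted p of that deviation ran from 0.03087 to 0.7241.

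The call of Vangl1 against WT depended on single libraries, since each group holds 2, while its log2 fold change stayed above 0 under every alternative. In the Head the call was lost without WT 1 (log2 1.26), without WT 2 (0.92) and without Gpr161 KO 1 (0.99), and the adjusted p over 14 alternatives ran from 1.785e-06 to 0.145. In the Tail it was lost when any 1 of the 4 libraries was left out, when the Tail was fitted alone and with sex as a term, with log2 fold changes from 0.84 to 1.06 and adjusted p-values from 0.0001008 to 0.4521 over 14 alternatives. Several lists of markers held genes called in Head Gpr161 KO against WT as well, where edgeR called 2.02% of all genes. The 7 floor plate genes summed to 936 and 1281 CPM in Gpr161 KO against 165 and 238 CPM in WT, and 6 of the 7 were called higher. The 9 endothelial genes summed to 591 and 491 CPM against 328 and 303 CPM (4 called), the 10 epithelial genes to 541 and 435 CPM against 302 and 273 CPM (1 called), and the 14 cardiomyocyte genes to 2626 and 556 CPM against 11.4 and 13.5 CPM (11 called). The 8 neural progenitor genes went the other way, to 933 and 1136 CPM against 1289 and 1314 CPM. Of the 8, 1 was called lower and 7 were below 0 on the log2 scale, where 50.9% of all genes were above 0. Of these lists, only cardiomyocyte genes were at 0 in a Head WT library: Nppa in both, Myl2 and Mybpc3 in 1. In the Tail, the floor plate genes summed to 331 and 364 CPM in Gpr161 KO against 133 and 210 CPM in WT. Of these 7, 2 were called (0.305% of all genes). The cardiomyocyte genes instead summed to 52.4 and 45.9 CPM against 86.4 and 174 CPM. The endothelial genes summed to 552 and 569 CPM in Tail Gpr161 KO against 453 and 443 CPM. Of the 9, 7 were higher and 2 lower without overlap (22.6% and 22% of all genes). The 8 mesenchymal genes summed to 3125 and 2323 CPM against 1985 and 1782 CPM. In these 2 lists 0 were called by edgeR (0.305% of all genes) or DESeq2 (319 of all genes), with 2 each at an unadjusted p under 0.05 by edgeR (6.98%). The part of these tissues in the level of Vangl1 was not tested.

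Vangl2, whose loss in mice leaves the neural tube open, was not called in any of the 18 comparisons by edgeR or by DESeq2, and 3 had an unadjusted p under 0.05. The Head libraries were at 124 and 132 CPM (WT), 154 and 116 (Fuz KO), 143 and 146 (Gpr161 KO) and 141 and 124 (DKO). The Tail libraries had 96.1 and 122 CPM (WT), 92.1 and 92.4 (Fuz KO), 108 and 117 (Gpr161 KO) and 89.3 and 72.9 (DKO). The level was lowest in Tail DKO, below both Tail WT libraries, with a log2 fold change of -0.43 ± 0.15 (95% interval -0.75 to -0.10, adjusted p = 0.5638). In the order of the 8 groups, the 4 Head groups came first and the 4 Tail groups last.

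Prickle1, which encodes a LIM-domain partner of Vangl, was highest among the Head groups in Gpr161 KO. It was at 28.4 and 27.0 CPM (Head WT), 21.7 and 22.6 (Fuz KO), 42.5 and 50.3 (Gpr161 KO) and 23.6 and 25.3 (DKO). The Gpr161 KO libraries lay above the other 6. Against WT the log2 fold change was 0.74 ± 0.23 (95% interval 0.24 to 1.25) and was not called (adjusted p = 0.1497), while 3 of 14 alternatives called it, with adjusted p-values from 0.003166 to 0.6253. Prickle1 was called lower than in Head Gpr161 KO in Head DKO (log2 -0.93 ± 0.23, adjusted p = 0.04403) and in Head Fuz KO (log2 -1.07 ± 0.23, adjusted p = 0.01921). The first of these calls was lost without any 1 of the 4 libraries (log2 -1.04 to -0.79), without haemoglobin and mitochondrial genes and with sex as a term, with adjusted p-values from 2.626e-05 to 0.2853 over 14 alternatives. The second was lost without Head Fuz KO 1 (log2 -1.02), without Gpr161 KO 1 (-1.18) or 2 (-0.93), and with sex as a term (-1.09), with adjusted p-values from 3.637e-07 to 0.1467.

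In the Tail, Prickle1 was at 50.2 and 42.1 CPM (WT), 87.8 and 46.6 (Fuz KO), 77.7 and 61.3 (Gpr161 KO) and 49.1 and 41.0 (DKO). The spread within Tail Fuz KO came from Fuz KO 1, 1 of the libraries with high hypoxia and glycolysis genes, and Tail Fuz KO 2 lay within the WT range. Against WT, Tail Fuz KO gave a log2 fold change of 0.54 ± 0.23 (adjusted p = 0.8156) and Tail Gpr161 KO gave 0.59 ± 0.23 (adjusted p = 0.5754). The deviation of Tail DKO from the added single effects was -1.17 ± 0.33 (adjusted p = 0.4925). Without Tail Fuz KO 2, when Fuz KO 1 alone stood for its group, it was -1.56. Over 18 alternatives the adjusted p ran from 0.0006333 to 1.

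Prickle2, the other member of the family, parted the libraries by region. It was at 12.0 and 9.81 CPM (Head WT), 12.2 and 13.1 (Fuz KO), 12.4 and 13.4 (Gpr161 KO) and 15.0 and 12.5 (DKO). The Tail libraries were at 16.8 and 17.3 CPM (WT), 16.0 and 16.5 (Fuz KO), 18.0 and 17.4 (Gpr161 KO) and 19.3 and 17.5 (DKO). All 8 Tail libraries lay above all 8 Head libraries. Prickle1 made up 77.7% to 88.5% of the Prickle level per kb as group means, and the lowest 2 shares were in Head Fuz KO (77.7% ± 0.356) and Head DKO (77.9% ± 3.02), the groups with the lowest Prickle1.

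Of the Celsr cadherins, Celsr1 rose in Head Gpr161 KO and fell in Tail DKO. The Head libraries were at 63.3 and 66.9 CPM (WT), 75.7 and 67.8 (Fuz KO), 110.5 and 119 (Gpr161 KO) and 81.8 and 77.8 (DKO). Each mutant library lay above both WT libraries, and the Gpr161 KO libraries lay above all others, with a log2 fold change against WT of 0.82 ± 0.15 (adjusted p = 0.01317). Celsr1 was called lower in Head Fuz KO than in Head Gpr161 KO (log2 -0.67 ± 0.15, adjusted p = 0.0185). Head DKO against Head Gpr161 KO gave -0.52 ± 0.15 and was not called by edgeR (adjusted p = 0.06738). DESeq2 called it (adjusted p = 0.03022), as did 3 other alternatives of 14, with adjusted p-values from 0.02254 to 0.3594.

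In the Tail, Celsr1 was at 64.5 and 82.7 CPM (WT), 79.9 and 70.1 (Fuz KO), 85.1 and 81.6 (Gpr161 KO) and 42.5 and 32.1 (DKO). Both DKO libraries lay below the 6 other Tail libraries, and below all 14 other libraries of the study, while both single mutants overlapped WT. The Gpr161 KO effect was a log2 fold change of 0.18 ± 0.15 here (95% interval -0.14 to 0.50), and its difference from the Head effect, Tail minus Head, was -0.64 ± 0.21 (adjusted p = 0.5203). Against Tail WT the fall was a log2 fold change of -0.98 ± 0.15 (adjusted p = 0.04179), against Tail Fuz KO -1.01 ± 0.15 (adjusted p = 0.04075) and against Tail Gpr161 KO -1.16 ± 0.15 (adjusted p = 0.004451). These 3 comparisons share the Tail DKO libraries. The deviation of Tail DKO from the added single effects was -1.19 ± 0.21 (95% interval -1.64 to -0.74) and was not called (adjusted p = 0.09469). DESeq2 called it (-1.21), as did 3 other alternatives of 18, with adjusted p-values from 5.232e-05 to 0.487.

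The estimate of the DKO effect on Celsr1 differed in sign between the regions, at log2 0.29 ± 0.15 in the Head (adjusted p = 0.957) and -0.98 ± 0.15 in the Tail. In Head DKO against WT, 0 of the 10 genes, Celsr1 included, had an unadjusted p under 0.05 by edgeR. The difference, Tail minus Head, was -1.28 ± 0.21 (95% interval -1.73 to -0.82), with an unadjusted p of 3.84e-05 and an adjusted p of 0.4086. With the replicate number within a genotype as a block, which assumes that the numbers pair Head with Tail, the value was also -1.28. It was then called (SE 0.14, adjusted p = 0.005566). Over 17 alternatives, 3 of which called it, the adjusted p ran from 6.989e-05 to 1.

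Leaving out single libraries ended most calls of Celsr1. Head Gpr161 KO against WT was called under 10 of 14 alternatives and lost when any 1 of its 4 libraries was left out (log2 0.74 to 0.85, adjusted p 0.07397 to 0.1848). Head Fuz KO against Head Gpr161 KO was lost without Fuz KO 1 (-0.74), without Gpr161 KO 1 (-0.73) or 2 (-0.62) and with sex as a term (-0.66). Tail DKO against WT was lost without WT 1 (-1.13), without WT 2 (-0.79), without DKO 2 (-0.79), at the stricter filter, in the Tail fitted alone and with sex as a term (-0.96), and the highest adjusted p was 0.5985. Tail DKO against Fuz KO was lost without Fuz KO 1 (-0.92), Fuz KO 2 (-1.11) or DKO 2 (-0.82), among others. Tail DKO against Gpr161 KO was called under 13 of 14 alternatives and lost without DKO 2 (-0.97, adjusted p = 0.06626). Beside the fall in Tail DKO, the 10 epithelial markers, genes of the tissue in which Celsr1 is best known, summed to 672 and 639 CPM in Tail DKO against 455 and 285 CPM in Tail WT. Of the 10, 0 were called in that comparison by edgeR (0.0423% of all genes) and 1 by DESeq2 (144 of all genes). At an unadjusted p under 0.05 by edgeR there were 2 (7.19% of all genes), and the median log2 fold change of the 10 was 0.09. The neural progenitor genes summed to 451 and 364 CPM against 458 and 722 CPM (median log2 -0.54, 7 of 8 below 0), the floor plate genes to 133 and 92.2 CPM against 133 and 210 CPM (median -1.26), and the mesenchymal genes to 2962 and 2589 CPM against 1985 and 1782 CPM (median 0.08). Of these 3 lists edgeR called 0 genes, DESeq2 called 0, 2 and 0, and 1, 3 and 2 had an unadjusted p under 0.05. Over all genes, 51% had a log2 fold change above 0 in that comparison. The part of these tissues in the level of Celsr1 was not tested.

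**Figure D2:**
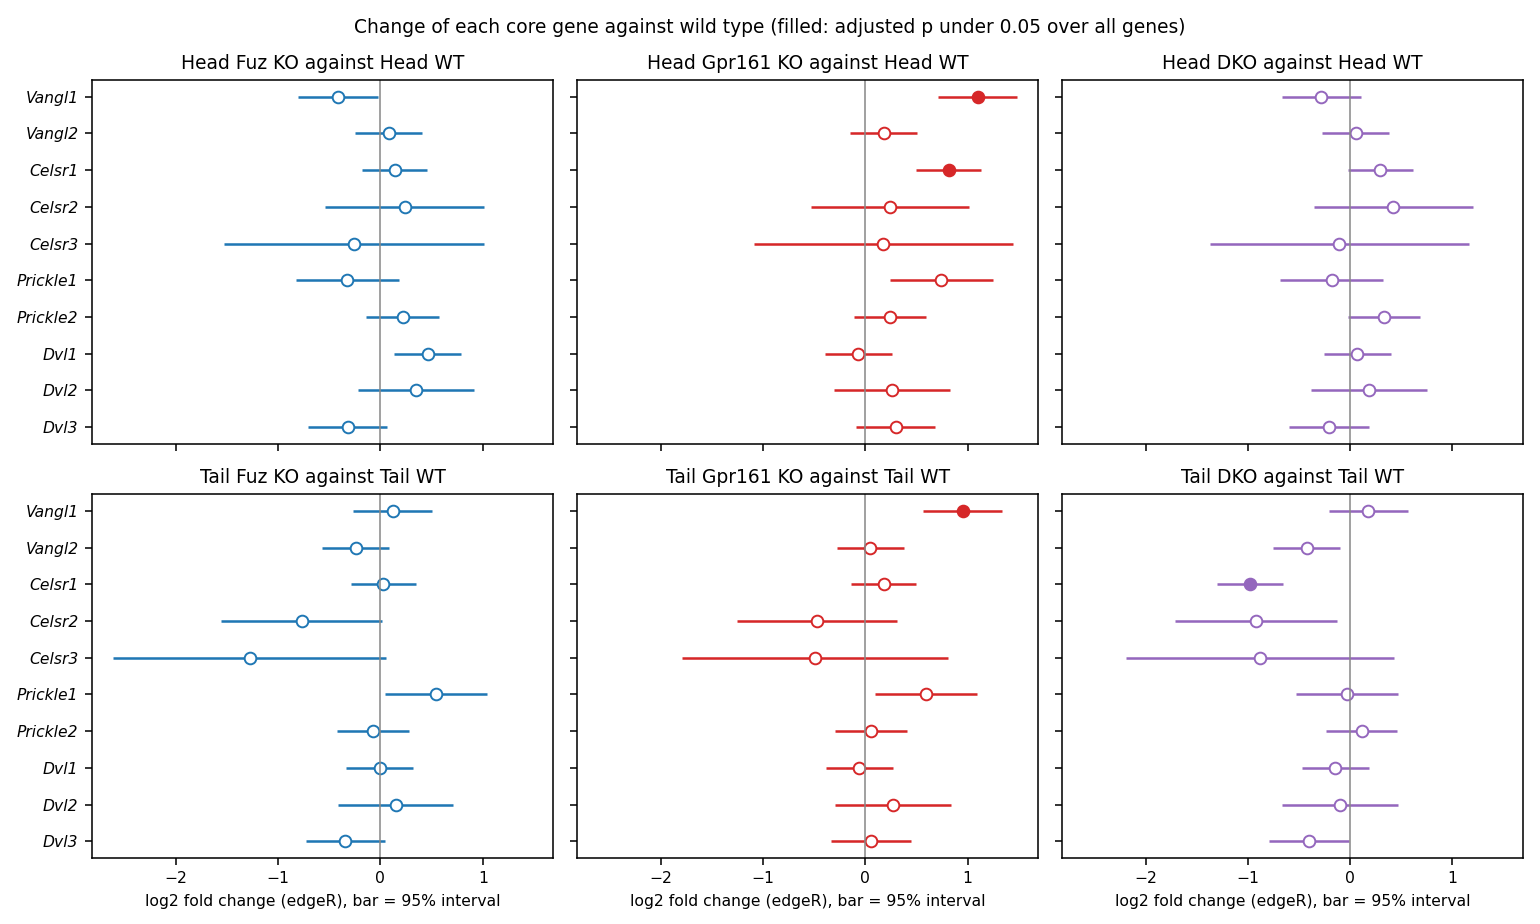
Log2 fold change from edgeR (horizontal axis) of each gene in each mutant against WT of the same region, with bars for the 95% interval and filled points for an adjusted p under 0.05. The filled points are Vangl1 (1.10) and Celsr1 (0.82) in Head Gpr161 KO, Vangl1 (0.95) in Tail Gpr161 KO and Celsr1 (-0.98) in Tail DKO, and the widest intervals belong to Celsr3.

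Celsr2 and Celsr3 divided the libraries by region. Celsr2 was at 90.5 and 122 CPM (Head WT), 127 and 123 (Fuz KO), 111 and 140.1 (Gpr161 KO) and 161 and 124 (DKO). The Tail libraries were at 29.8 and 64.7 CPM (WT), 22.5 and 32.9 (Fuz KO), 33.0 and 35.0 (Gpr161 KO) and 32.1 and 17.9 (DKO). Celsr3, which guides axons of developing neurons, was at 18.7 and 23.2 CPM (Head WT), 12.7 and 22.3 (Fuz KO), 19.5 and 27.9 (Gpr161 KO) and 20.6 and 18.2 (DKO). The Tail had 2.75 and 10.9 CPM of Celsr3 (WT), 1.57 and 4.05 (Fuz KO), 4.83 and 4.88 (Gpr161 KO) and 5.03 and 2.41 (DKO). For both genes every Head library lay above every Tail library, and the lowest and highest library differed 9.02-fold for Celsr2 and 17.7-fold for Celsr3, the widest ranges of the 10 genes.

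Between the WT groups, Celsr2 was higher in the Head by a log2 difference of 1.17 ± 0.36 (95% interval 0.38 to 1.96) and Celsr3 by 1.61 ± 0.60 (0.31 to 2.92), and neither was called by edgeR (adjusted p = 0.1213 and 0.2169). DESeq2 called both (adjusted p = 0.01057 and 0.03406). With the replicate number as a block, which assumes that the numbers pair Head with Tail, both were also called. The values were 1.25 (adjusted p = 0.01298) and 1.87 (adjusted p = 0.04096). The difference was smaller for including Tail WT 2, which held more of both genes than any other Tail library. Without it the values were 1.85 (adjusted p = 0.01879) and 2.94 (adjusted p = 0.02675), and over 13 alternatives the adjusted p ran from 7.645e-11 to 0.5673 for Celsr2 and from 3.002e-07 to 0.7381 for Celsr3. The same library moved the Tail comparisons of mutants with WT: the log2 values of Celsr3 were -1.28 ± 0.61 (Fuz KO), -0.49 ± 0.59 (Gpr161 KO) and -0.88 ± 0.60 (DKO), none of them called, and 0.04, 0.82 and 0.44 without Tail WT 2. For Celsr2 the 3 values were -0.77 ± 0.36, -0.47 ± 0.36 and -0.92 ± 0.36 with it, and -0.09, 0.19 and -0.25 without it. With no filter on low counts, Celsr2 was called in Tail Fuz KO and Tail DKO and Celsr3 in Tail Fuz KO. That setting called 519 and 481 of all genes in Tail Fuz KO and Tail DKO, against 2 and 9 in the main fit.

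Markers of neurons and of neural progenitors also lay higher in the Head. The 10 neuron markers summed to 643 to 1397 CPM in the Head libraries and to 93.6 to 587 CPM in the Tail libraries, with Tail WT 2 at 587 CPM and Tail WT 1 at 147 CPM, and none of the 10 was at 0 in any library. Between Head WT and Tail WT, 8 of the 10 were higher in the Head without overlap (24.8% of all genes) and 1 was lower (27.9%). Of the 10, 0 were called by edgeR (3.77% of all genes) and 1 by DESeq2, with 5 at an unadjusted p under 0.05 by edgeR (13.7%). The 8 neural progenitor markers summed to 933 to 1477 CPM in the Head libraries and to 356 to 722 CPM in the Tail libraries. All 8 were higher in Head WT than in Tail WT without overlap (24.8% of all genes), with 2 called by edgeR (3.77%) and 7 by DESeq2. The 3 genes most alike Celsr3 over the 16 libraries were Elavl3 (Pearson's r of 0.993), Insm1 (0.989) and Atcay (0.988), of 10946 genes compared by log2(CPM + 0.5), and Elavl3 is itself among the neuron markers. Those most alike Celsr2 were Srgap3 (0.983), Slc25a23 (0.977) and Ckb (0.975). Among the 10 core genes the highest r was that of Celsr2 with Celsr3, 0.964. These values describe libraries that share regions, genotypes and possibly embryos, and the part of neurons and progenitors in the 2 genes was not tested.

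**Figure D3:**
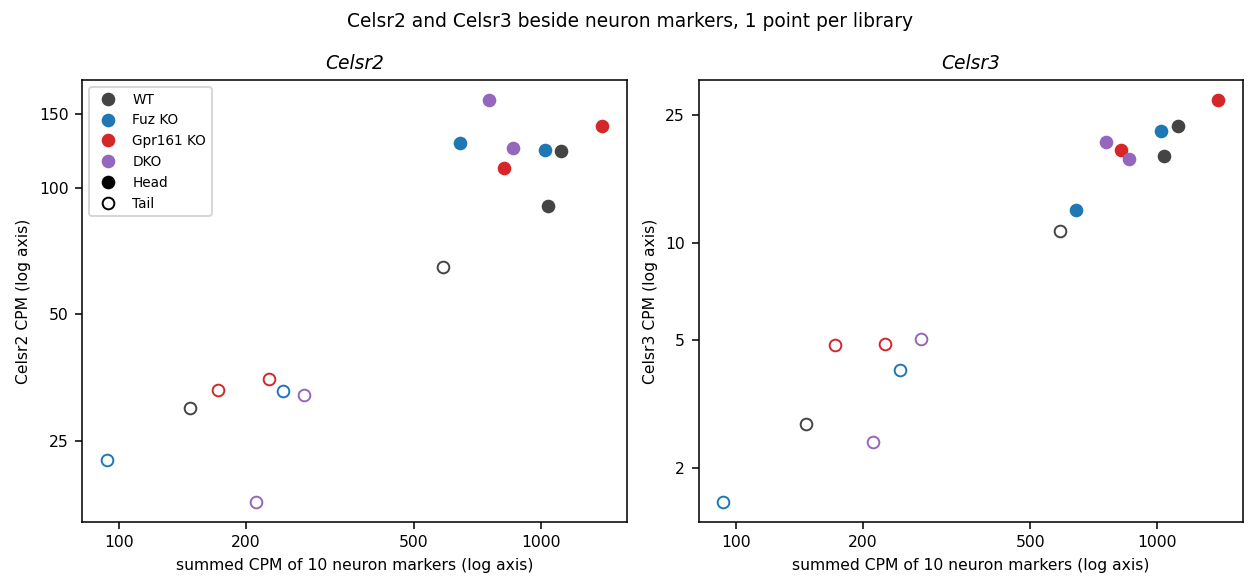
Level of Celsr2 and Celsr3 in CPM (vertical log axes) against the summed CPM of 10 neuron markers (horizontal log axis), 1 point per library, coloured by genotype, with Head libraries filled and Tail libraries open. Tail WT 2 (587 CPM of neuron markers, 64.7 CPM of Celsr2 and 10.9 CPM of Celsr3) lies between the other Tail libraries and the Head libraries.

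The Dvl scaffolds, which pass signals from Frizzled to both the polarity and the beta-catenin branch of Wnt signalling, had no call by edgeR in the 18 comparisons. DESeq2 called Dvl1 and Dvl3 in 1 comparison each, Head Fuz KO against Head Gpr161 KO, where the fit with the replicate number as a block called both too. The edgeR values there were 0.53 ± 0.15 for Dvl1 (adjusted p = 0.05731) and -0.62 ± 0.18 for Dvl3 (adjusted p = 0.06244). Among the 18 comparisons the unadjusted p was under 0.05 in 4 comparisons for Dvl1, 0 for Dvl2 and 5 for Dvl3. Dvl1 was at 55.6 and 49.1 CPM (Head WT), 85.5 and 58.7 (Fuz KO), 50.2 and 49.6 (Gpr161 KO) and 54.5 and 55.3 (DKO). In the Tail its 8 libraries ran from 45.8 to 54.2 CPM. Dvl2 was at 76.0 and 68.8 CPM (Head WT), 119 and 65.7 (Fuz KO), 90.8 and 83.1 (Gpr161 KO) and 92.4 and 72.1 (DKO). Its Tail values were 82.9 and 72.6 CPM (WT), 105 and 67.4 (Fuz KO), 96.4 and 91.1 (Gpr161 KO) and 82.2 and 62.9 (DKO). No 2 neighbours in the order of its 8 groups were apart. Of the exon length of Dvl2, 18.28% overlaps Acadvl on the opposite strand, and without the strand setting of the counting, reads of that stretch cannot be assigned to 1 gene.

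Dvl3 was at 94.8 and 92.4 CPM (Head WT), 57.7 and 92.2 (Fuz KO), 109 and 121 (Gpr161 KO) and 82.0 and 80.4 (DKO). The Tail had 83.5 and 75.8 CPM (WT), 54.5 and 71.1 (Fuz KO), 81.4 and 83.8 (Gpr161 KO) and 62.1 and 58.1 (DKO). The lowest value in either region was that of Fuz KO 1, and Fuz KO 2 also lay below both WT libraries. In the Head, Fuz KO 1 was thus the highest library for Dvl1 and Dvl2 and the lowest for Dvl3. Head Fuz KO against WT gave log2 fold changes of 0.46 ± 0.15 for Dvl1, 0.35 ± 0.26 for Dvl2 and -0.32 ± 0.18 for Dvl3 (adjusted p = 0.5998, 0.6548 and 0.606). Without Head Fuz KO 1 they were 0.17, -0.13 and -0.02. With Fuz KO 1 as the only library of its group, the values were 0.67 for Dvl1 and -0.74 for Dvl3.

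The division of the Dvl level per kb shifted with it. Dvl3 held 20.0% of it in Head Fuz KO 1, 39.3% in number 2 of that group, and 23.6% and 35.5% in the Tail libraries of the same numbers, against 40.0% ± 1.47 in Head WT and 35.5% ± 0.868 in Tail WT. Dvl2 held 42.0% and 28.5% in the 2 Head Fuz KO libraries and 46.2% and 34.2% in the Tail. The 2 Fuz KO 1 libraries had the highest sums of the 15 hypoxia and glycolysis genes of all 16 libraries, 18790 and 17020 CPM, against 5642 and 6152 CPM in Fuz KO 2. The sums of DKO 1 (Head, then Tail) were 13600 and 13460 CPM and those of DKO 2 were 8082 and 8608 CPM. Dvl3 held 33.3% and 30.3% in DKO 1 and 35.8% and 32.1% in DKO 2. Dvl2 held 38.2% and 40.8% in DKO 1 and 32.7% and 35.4% in DKO 2. The part of the hypoxia and glycolysis state in the Dvl shares was not tested.

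**Figure D4:**
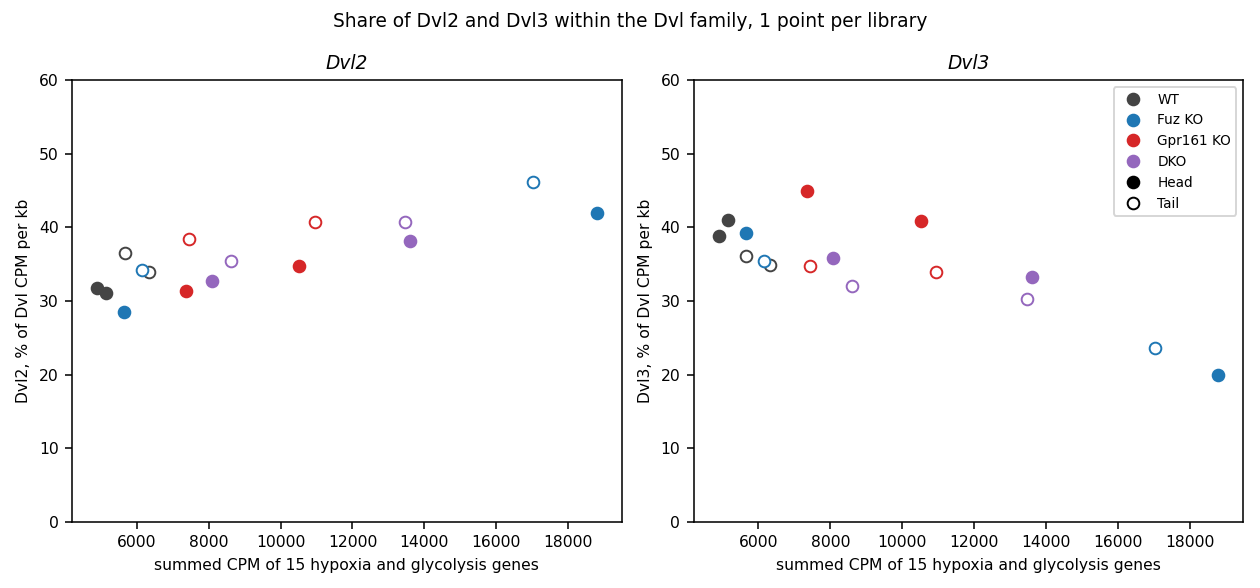
Share of Dvl2 and Dvl3 in the level per kb of the Dvl family in percent (vertical axes from 0) against the summed CPM of 15 hypoxia and glycolysis genes (horizontal axis), 1 point per library. The 2 Fuz KO 1 libraries, at 18790 and 17020 CPM, hold the lowest shares of Dvl3, 20.0% and 23.6%, and the highest of Dvl2, 42.0% and 46.2%.

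Counted by comparison, 2 of the 10 genes were called in Head Gpr161 KO against WT, where 2.02% of all genes tested were called. In Tail Gpr161 KO against WT 1 of 10 was called (0.305% of all genes), and in Tail DKO against WT 1 of 10 (0.0423%). The 3 comparisons with WT in a region share its WT libraries. Head Fuz KO, Head DKO and Tail Fuz KO against WT had 0 calls by edgeR and by DESeq2. There edgeR called 0.047%, 0.0329% and 0.0094% of all genes, and DESeq2 called 49, 57 and 24 genes. At an unadjusted p under 0.05 by edgeR these comparisons had 2, 0 and 1 of the 10 (8.17%, 4.33% and 5.21% of all genes). Between mutants, 2 of 10 were called in Head DKO against Gpr161 KO (4.16% of all genes), 3 in Head Fuz KO against Gpr161 KO (5.87%), 1 in Tail DKO against Fuz KO (0.0329%) and 1 in Tail DKO against Gpr161 KO (0.522%). DESeq2 called 3, 5, 1 and 2 of the 10 in these 4, and 1805, 2455, 25 and 718 of all genes. Head DKO against Fuz KO had 0 calls by either tool (0.0282% of all genes by edgeR, 12 genes by DESeq2) and 1 gene at an unadjusted p under 0.05 (2.89%). Tail Fuz KO against Gpr161 KO had 0 calls by edgeR (0.395%), 1 by DESeq2 (345 of all genes) and 2 at an unadjusted p under 0.05 (9.3%).

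Tests of how effects combine or differ called 0 of the 10 by edgeR. For the deviation of the DKO from added effects, 0.164% of all genes were called in the Head and 0.0423% in the Tail. DESeq2 called 1 of the 10 in each (316 and 124 of all genes). By edgeR, 2 and 3 of the 10 had an unadjusted p under 0.05 (8.02% and 6.24% of all genes). For the difference of an effect between Tail and Head, edgeR called 0% of all genes for Fuz KO, 0.094% for Gpr161 KO and 0% for DKO. DESeq2 called 0, 0 and 1 of the 10 (0, 227 and 11 of all genes). By edgeR, 2, 1 and 3 had an unadjusted p under 0.05 (2.12%, 5.26% and 3.25% of all genes).

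Counted without a test, in 7 of the 10 genes both Head Gpr161 KO libraries lay above both WT libraries, which held for 28.4% of all genes, and in 0 did both lie below (25.1%). The median log2 fold change of the 10 in that comparison was 0.25, against 0.01 over all genes. In Tail DKO against Tail WT the median of the 10 was -0.27, with 4 genes lower and 2 higher without overlap (20.8% and 21.4% of all genes).

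Between the WT regions, only Prickle2 was called of the 10 (3.77% of all genes), lower in the Head by a log2 difference of -0.64 ± 0.16 (adjusted p = 0.04669). With the replicate number as a block, where pairing is assumed, 3 of the 10 were called, Prickle2 with Celsr2 and Celsr3 (2007 of all genes). The Prickle2 call was lost without any 1 of the 4 libraries (log2 -0.77 to -0.49), under RLE scaling (-0.63, adjusted p = 0.05291), with no filter, without haemoglobin and mitochondrial genes and with sex as a term, and the highest adjusted p was 0.4646. Prickle1 was also lower in Head WT, by -0.73 ± 0.23 (95% interval -1.24 to -0.23), and was not called (adjusted p = 0.1245). Vangl2 (0.23 ± 0.15) and Dvl3 (0.23 ± 0.18) were higher and Vangl1 (-0.24 ± 0.18) was lower in Head WT without overlap, and none of the 3 was called by edgeR or DESeq2. Of all genes, 24.8% were higher and 27.9% lower in Head WT without overlap.

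The other genes with a pattern most like each member were different for each. Vangl1 was most like Tgfb1 (r = 0.95), Sox18 (0.948) and Piezo1 (0.942). Prickle1 was most like Vsir (0.959), Reck (0.946) and Magi3 (0.944), and among the core genes its highest r was 0.795, with Vangl1. Vangl2 was most like Rgma (0.969), Clstn1 (0.967) and Palm (0.956), Celsr1 like Ptpn23 (0.91), Mical3 (0.896) and Sipa1l1 (0.884), and Prickle2 like Mrpl10 (0.913), the carboxypeptidase gene Cpm (0.91) and Arg1 (0.906). Dvl1 was most like Eif1b (0.927), Otub1 (0.922) and Cbx8 (0.914), Dvl2 like Kdm1a (0.948), Mta1 (0.944) and Hsp90ab1 (0.941), and Dvl3 like Fbrsl1 (0.976), Abhd2 (0.965) and Plxna1 (0.956). All r are over the same 16 libraries, which share regions and genotypes.

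A list of 36 further genes of the pathway (among them receptors, ligands and co-receptors, cytoplasmic partners, Dact modulators, the Fat and Dachsous cadherins and CPLANE) was measured beside the 10. Against WT, edgeR called 1 of the 36 in the 6 comparisons together. DESeq2 called 3 in Head Gpr161 KO and 1 in Tail Gpr161 KO, where it called 976 and 319 of all genes. The edgeR call was Dact1, a binding partner and modulator of Dvl, which rose in Head Gpr161 KO. Dact1 measured 33.7 and 34.1 CPM for Head WT and 58.3 and 77.8 CPM in those of Head Gpr161 KO (log2 1.01 ± 0.22, adjusted p = 0.03157). In that comparison 27 of the 36 had a log2 fold change above 0 (50.9% of all genes), with a median of 0.19. Dchs2, an atypical cadherin, measured 0.964 and 2.39 CPM for Head WT and 18.5 and 20.0 CPM in Head Gpr161 KO (log2 3.52 ± 0.85, adjusted p = 0.06463), and was not called. The 4 CPLANE genes of the list, Intu, Wdpcp, Cplane1 and Rsg1, which encode partners of Fuz, had 0 calls by edgeR and by DESeq2 in the 6 comparisons, where edgeR called 0.0094% to 2.02% of all genes. Of their 24 tests, 1 had an unadjusted p under 0.05 (4.33% to 12.9% of all genes).

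Between mutants, edgeR called 2 of the 36 in Head DKO against Head Gpr161 KO (4.16% of all genes). Dact1 (log2 -1.37) and Dchs2 (-3.69) were lower there. In Head Fuz KO against Head Gpr161 KO it called 5 of the 36 (5.87% of all genes), all lower. These were the same 2, the receptor Fzd1 (-0.55), the glypican Gpc4 (-0.77) and the formin Daam1 (-0.84). In Tail DKO against Tail Gpr161 KO, where Celsr1 was lower, the ligands Wnt5a (log2 -1.05) and Wnt5b (-0.92) were called lower. They were 2 of the 36 (0.522% of all genes). DESeq2 called 5, 6 and 8 of the 36 in these comparisons, and 1805, 2455 and 718 of all genes. Wnt5a was at 160 and 133 CPM in Tail Gpr161 KO, 73.3 and 67.9 CPM in Tail DKO and 101 and 96.4 CPM in Tail WT. These genes were named after their values in the mutant pairs were seen. Between the WT regions, edgeR called 5 of the 36 (3.77% of all genes) and DESeq2 7. Of the 5, Wnt5a (log2 -0.68), Wnt11 (-2.33), Dact2 (-2.04) and the formin Daam2 (-1.23) were lower in the Head and Gpc4 (0.82) was higher. Wnt11 measured 1.57 and 1.36 CPM for Head WT and 7.76 and 7.04 CPM in Tail WT, and Daam2 measured 28.7 and 27.5 CPM for Head WT and 68.9 and 63.0 CPM in Tail WT, so that the groups did not overlap.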

How the data were processed

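The authors deposited whole-number counts for each Ensembl identifier, not normalized, with a file for each library. The libraries were poly-A selected NEBNext Ultra libraries from DNase-treated RNA, per the labels' protocols. The submitters' processing notes list STAR 2.7.1a, featureCounts 1.6.0, HTSeq and StringTie 2.0.4, with the build GRCm39. The counter that was used and how it treated strand are not given in the sources read. Identifiers were named through GENCODE M21 (54723 of 54838 named), whose exon lengths also gave CPM per kb. That annotation and the promoter table use an earlier build than the notes.

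Counts were fitted with edgeR 4.0.16 in R 4.3.3 (filterByExpr, TMM, robust quasi-likelihood F-test) in 1 model over 16 libraries with 1 coefficient for each group and 8 residual degrees of freedom (common biological coefficient of variation 0.257). The SE was taken from the F statistic. The 18 comparisons were the mutants against WT and against each other within a region, the deviation of the DKO from additive log2 effects (non-additivity), each mutant effect compared between regions, and Head WT against Tail WT. The members and lists were chosen with earlier results of these data known. The rule for names took all 10 genes, the listed pathway genes called against WT or between WT regions, and the 3 most alike genes per member with a mean of at least 5 CPM.

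Alternatives were DESeq2 1.42.0, RLE scaling, no filter, a filter at 5 CPM in 2 libraries, a fit per region, a block for the replicate number, removal of haemoglobin and mitochondrial genes, removal of both Fuz KO 1 or of both Fuz KO 1 and both DKO 1 libraries, sex as a term, and each library left out in turn, where a group of 1 was taken to have the spread of the others. The fit was tested on simulated counts. Deviations of same-numbered Head and Tail libraries of 1 genotype from their group means correlated across genes (WT r = 0.289, Fuz KO 0.637, Gpr161 KO 0.373, DKO 0.592). Between genotypes r ran from -0.125 to 0.493, so its highest value passed those of WT and Gpr161 KO. The correlation thus cannot show pairing. The block between regions assumed that the numbers pair Head with Tail, and no pairing was assumed between genotypes.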

Additional observations from a re-analysis of the deposited data

How the results depend on the processing

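Of 2680 recomputed log2 values of single genes, 1 reversed. Dvl2 in Head Fuz KO against Head Gpr161 KO was at 0.09 and was called at -0.39 without both Fuz KO 1 and both DKO 1 libraries. Fuz KO 2 alone then stood for Head Fuz KO, at 65.7 CPM, where Head Fuz KO 1 held 119 CPM. The cause was not tested. Of 167 recomputed values of the 12 called results 118 kept their call, and all 167 kept their direction. Of 2513 recomputed values that were not called in the main fit, 67 became called with the same sign, and the reversed Dvl2 value became called too. A change of sign was seen in 167, that value included.

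The following counts of called genes differed by more than 1.5 times from the reported ones, and the causes were not tested. Smaller changes, such as 3 in place of 2 in Head Gpr161 KO against WT with no filter, are left out. With no filter the count was 2 in Tail Fuz KO against WT, 2 in Tail DKO against WT, 4 in Head DKO against Gpr161 KO, 5 in Head Fuz KO against Gpr161 KO, 3 in Tail DKO against Gpr161 KO, 1 in Tail Fuz KO against Gpr161 KO, 2 for Tail non-additivity, 1 and 2 for the Fuz KO and DKO effects Tail minus Head, and 3 between WT regions. With at least 5 CPM in 2 libraries it was 0 in Tail DKO against WT and against Fuz KO. With each region fitted alone it was 0 in Tail Gpr161 KO against WT and in Tail DKO against WT and against Fuz KO. DESeq2 called 5 in Head Fuz KO against Gpr161 KO, 2 in Tail DKO against Gpr161 KO, 1 in Tail Fuz KO against Gpr161 KO, 1 for each non-additivity, 1 for the DKO effect Tail minus Head and 3 between WT regions. Without haemoglobin and mitochondrial genes the count was 1 in Head DKO against Gpr161 KO and 0 between WT regions, and RLE scaling gave 0 there too. Without both Fuz KO 1 libraries it was 4 in Head DKO against Gpr161 KO, 0 in Tail DKO against Fuz KO, 4 in Tail DKO against Gpr161 KO and 2 between WT regions. Without both DKO 1 libraries as well it was 4 in Head Gpr161 KO against WT, 4 in Head DKO against Gpr161 KO, 6 in Tail DKO against Gpr161 KO, 1 in Tail Fuz KO against Gpr161 KO, 1 for Tail non-additivity and 2 between WT regions. With sex as a term the count was 0 in Tail Gpr161 KO against WT, in Tail DKO against WT and against Fuz KO. It was also 0 between WT regions, and 1 in Head DKO and in Head Fuz KO against Gpr161 KO. Over all genes that fit called 29, 6 and 7 in the 3 Tail comparisons (main 65, 9 and 7). In the 2 Head comparisons it called 537 and 702 (main 886 and 1250).

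With the replicate block the count was 5 in Head Fuz KO against Gpr161 KO (main 3), 2 in Tail DKO against Gpr161 KO (main 1) and 1 in Tail Fuz KO against Gpr161 KO (main 0), where the numbers are not known to pair the samples. Between regions, where the pairing is assumed, the fit gave 1 for the DKO effect Tail minus Head (main 0) and 3 between WT regions (main 1). It changed no other count by over 1.5 times. Over all genes the block called 1782, 231 and 127 in the 3 mutant pairs (main 1250, 111 and 84). Between regions it called 19 and 2007 (main 0 and 802).

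When 1 library was left out, the count ran from 0 to 2 in Head Fuz KO against WT, 0 to 1 in Head Gpr161 KO against WT, 0 to 0 in Tail Gpr161 KO against WT, 0 to 1 in Tail DKO against WT, 0 to 1 in Head DKO against Fuz KO, 1 to 1 in Head DKO against Gpr161 KO, 1 to 5 in Head Fuz KO against Gpr161 KO, 0 to 1 in Tail DKO against Fuz KO and against Gpr161 KO, 0 to 2 for Tail non-additivity and 0 to 2 between WT regions. With 2 libraries a group the precision is limited: in Tail DKO against WT the 95% interval of the log2 fold change ran from -1.30 to -0.66 for Celsr1 and from -2.19 to 0.43 for Celsr3.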
